A study of Mus musculus with 4 samples.

Results

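Of the 4295 circular RNAs (circRNAs) listed for mouse C3H10T1/2 cells, 227 carried the authors' type exonic, and these 227 are described here. They came from 218 host genes and made up 5.29% of all listed circRNAs. They held 8451 of the 48023 junction reads, which is 17.6%. The type sense-overlapping, the most frequent in the list with 3842 circRNAs and 79.4% of the junction reads, serves as the comparison. C3H10T1/2 is an established mouse mesenchymal stem cell line. After removal of ribosomal RNA, total RNA was sequenced for 2 untreated samples, called replicates 1 and 2, and for 2 samples given 5-AZA, called replicates 101 and 102, all of this line. 5-AZA, 5-azacytidine, is a cytidine analogue that lowers DNA methylation. It was given at 20 μmol/L for 72 hours, and the cells were then kept in fresh medium for another 21 days. The sources used here give no culture time for the untreated samples, so exposure and time in culture cannot be told apart. The repeats are called biological without a statement that they were separate cultures, so the p-values measure only the spread between these samples.

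A circRNA forms when the splicing machinery joins the downstream end of an exon to the upstream end of the same or an earlier exon, which is called back-splicing. The product has no free ends and escapes the exonucleases that degrade linear mRNA from its ends, so circles can persist long after they are made. The reaction uses the ordinary splice sites, and it competes with linear splicing of the host transcript. Inverted repeats in the flanking introns and RNA-binding proteins such as Quaking are known to favour it. An RNA-seq read identifies a circle only where it crosses the back-spliced junction. Each circle has 1 such junction, so junction reads were compared between circRNAs without scaling to length.

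The upstream end of a circle is a 3' splice site, and for the circRNAs of Arhgap5, Chd9 and Lats2 the RefSeq sequence before it is shown because these were detected in all 4 samples and stand for a lower, a higher and an overlapping level after 5-AZA. Each line gives 60 bases of intron and the first 10 bases of the circle, 5' to 3' on the strand of the gene, with the AG of the splice site in capitals (RefSeq GRCm38.p6).
Arhgap5 circRNA_0856, chr12:52516019-52516088, plus strand: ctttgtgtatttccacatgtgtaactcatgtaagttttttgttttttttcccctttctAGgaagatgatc
Chd9 circRNA_3873, chr8:90932189-90932258, plus strand: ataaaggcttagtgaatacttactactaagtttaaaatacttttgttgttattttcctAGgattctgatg
Lats2 circRNA_1293, chr14:57734409-57734478, minus strand: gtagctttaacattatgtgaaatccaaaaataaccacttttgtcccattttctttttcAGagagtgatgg
The pyrimidine tract that spliceosome factors bind before the AG is visible in each line, with 19 of 20 bases C or T for Arhgap5, 16 for Chd9 and 18 for Lats2. The promoter windows of RefSeq reached 60 bases before such a site for 5 exonic circRNAs, where this number had a median of 17 (range 16 to 19). For 38 sense-overlapping circRNAs it had a median of 16.5 (range 12 to 19). These few sites were set by where annotated transcripts start and are no sample of all circles. At Lats2 and Chd9, as at Pakap and Sipa1l2, a RefSeq transcript starts at the first base of the circle. At Arhgap5 a RefSeq transcript starts 2 bases from it. At Tulp4 a RefSeq transcript starts 937 bases into the circle, and at Plce1 282 bases into it.

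The exonic circles were uninterrupted pieces of the genome. For 224 of the 227 the listed length equalled the span on the genome, against 2.11% of the sense-overlapping circRNAs, whose median genomic span was 11472 bases. The 3 exceptions came from Elk3, Hmgxb3 and Zfp644. Length had a median of 638 bases (quartiles 365.5 and 1193, range 139 to 5772), near the 607 bases of the sense-overlapping circRNAs. Circles of up to 300 bases were 18.5% of the exonic type and 9.45% of the sense-overlapping type. The longest came from Tcf20 (5772 bases), Ash1l (4558 bases), which encodes a histone methyltransferase, and Arhgap5 (3889 bases). Tcf20 and Arhgap5 were also among the most read, whereas circRNA_2718 of Ash1l had 2 reads, in untreated replicate 1. The shortest came from Zfp87 (139 bases), 4921524J17Rik (146 bases) and Bclaf1 (147 bases), each with 2 or 3 reads in a single sample. Length was a whole multiple of 3 for 32.2% of the exonic and 35.5% of the sense-overlapping circRNAs.

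**Figure D1:**
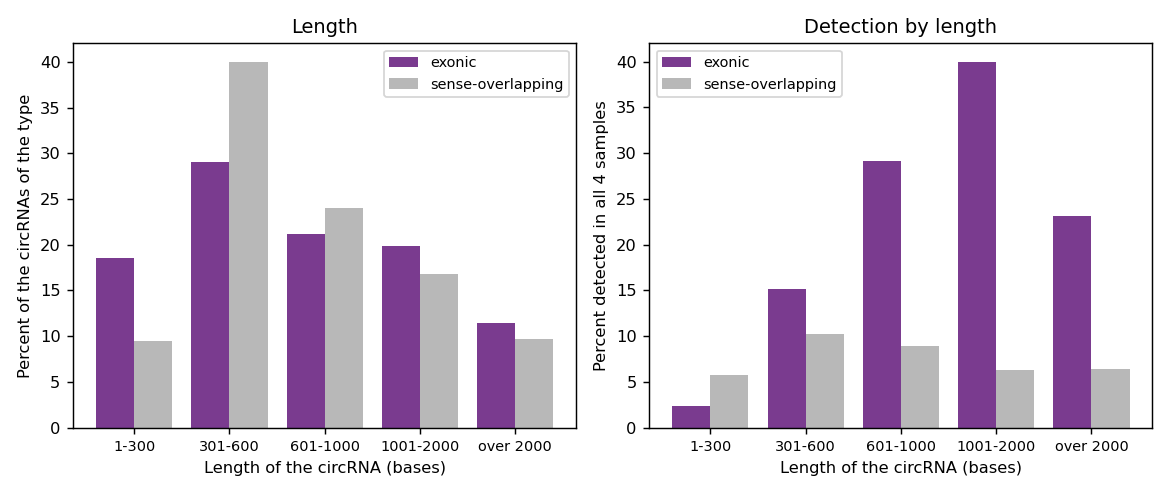
Left, percent of exonic (n = 227) and sense-overlapping (n = 3842) circRNAs in 5 bins of listed length in bases. Right, percent of the circRNAs of each bin that were detected in all 4 samples. For exonic circRNAs this percent was 2.38 up to 300 bases and 40 over 1000 and up to 2000 bases.

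Detection varied with length within the exonic type. Of the 42 circles of up to 300 bases, 2.38% were detected in all 4 samples, against 15.2% of 66 circles up to 600 bases, 29.2% of 48 up to 1000 bases and 40% of 45 up to 2000 bases. Above 2000 bases it was 23.1% of 26 circles, and among sense-overlapping circRNAs the percent was between 5.79 and 10.3 in every bin. Across the 227 circRNAs, length and junction reads had a Spearman correlation of 0.239, and across the 49 detected in all samples it was −0.122. These correlations describe circRNAs of the same 4 libraries, which are not independent replicates. The median length was 716 bases over circRNAs detected in at least 2 samples and 1099 bases when each junction read was counted.

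Most exonic circRNAs were rare. No value under 2 junction reads is listed, so a circRNA listed at 0 had fewer than 2. The step taken as 1 read was 0.0106 to 0.0108 RPM (junction reads scaled to the reads of the library). Library sizes of 92903364 to 93920706 reads were inferred from that step. Of the 227, 120 were detected in 1 sample, 31 in 2, 27 in 3 and 49 in all 4. Detection in all 4 held for 21.6% of the exonic and 8.49% of the sense-overlapping circRNAs. The median was 5 reads over the 4 samples together, and 42 circRNAs had 2 reads in all. The 49 detected in every sample held 87.9% of the exonic junction reads. Of the 227, 162 (71.4%) carried a circBase identifier, against 53.0% of the sense-overlapping type. The 65 without one had a median of 3 reads and those with one a median of 8. Among the 49 detected everywhere, 47 had an identifier, and the exceptions include Disp1 and Mecom.

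A few circRNAs held most of the reads. The 3 most read had 53.9% of all exonic junction reads and the 15 most read had 72.7%. Among all 4295 circRNAs, exonic ones took 3 of the first 10 places and 17 of the first 100, although they were 5.29% of the list.

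**Figure D2:**
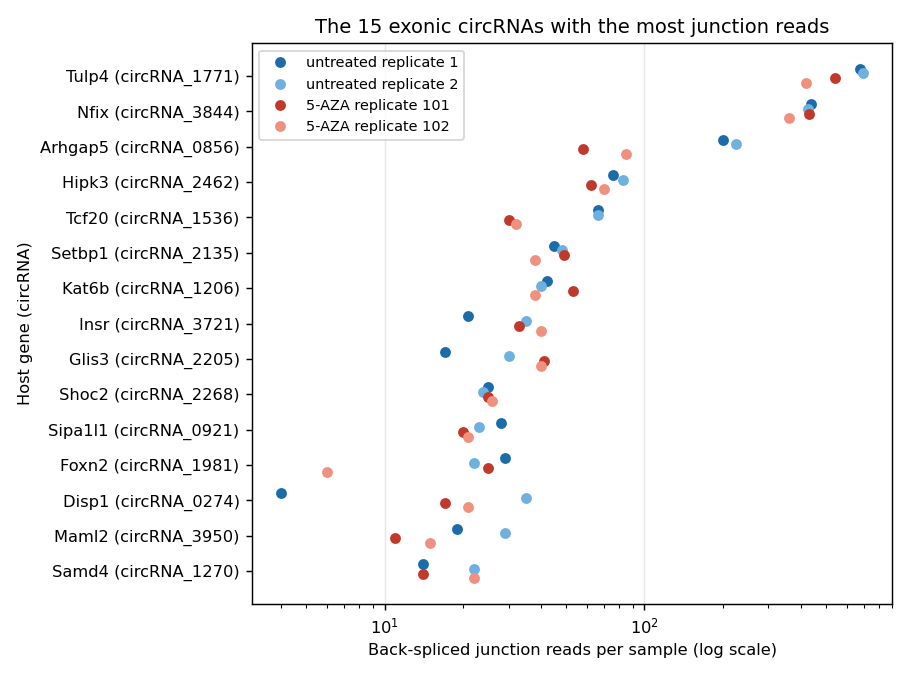
Junction reads in each of the 4 samples (log scale) for the 15 exonic circRNAs with the most reads, 1 point per sample, with no averaging. The 5-AZA points of Arhgap5 (58 and 85) and Tcf20 (30 and 32) lie left of the untreated points (201 and 225, and 66 and 66), while the points of Shoc2 lie between 24 and 26.

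The most read circRNA of any type was circRNA_1771 of Tulp4, which encodes a tubby-like protein (chr17:6137211-6139156, plus strand, 1946 bases, mmu_circ_0000723). It had 675 and 696 reads in the untreated samples and 542 and 417 in the 5-AZA samples. Both 5-AZA values were lower, and the circle carried 93.0% of the junction reads of the 11 circRNAs listed for Tulp4. The next was circRNA_3844 of Nfix, a nuclear factor I transcription factor known for its role in muscle development (chr8:84771784-84772315, minus strand, 532 bases). It had 438, 425, 429 and 360 reads in replicates 1, 2, 101 and 102, so the groups overlapped, and it carried 94.0% of the reads of the 8 circRNAs of Nfix. The circle of Hipk3 (circRNA_2462, 1099 bases), from a homeodomain-interacting protein kinase gene, had 76, 83, 62 and 70 reads and 97.3% of the circular reads of its host. Its groups did not overlap, with a ratio of 0.828 (95% interval 0.653 to 1.05, exact conditional binomial, counting error only).

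Arhgap5 encodes a GTPase-activating protein. Its circRNA_0856 (chr12:52516079-52519967, plus strand, 3889 bases, mmu_circ_0000377), which begins at the splice site printed above, had 201 and 225 reads in the untreated and 58 and 85 in the 5-AZA samples. The groups were far apart, with a ratio of 0.335 (0.275 to 0.406). Tcf20, a transcriptional coregulator, gave circRNA_1536 (chr15:82851513-82857284, minus strand, 5772 bases). It had 66 reads in each untreated sample and 30 and 32 in the 5-AZA samples, a ratio of 0.469 (0.341 to 0.638). These circRNAs had the largest fitted differences among the 15 most read.

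The remaining highly read circRNAs varied between samples by as much as between groups, with a few exceptions. Setbp1 (45, 48, 49 and 38 reads in replicates 1, 2, 101 and 102), the histone acetyltransferase gene Kat6b (42, 40, 53 and 38) and Samd4 (14, 22, 14 and 22), which encodes an RNA-binding repressor of translation, overlapped between the groups. Shoc2, a scaffold of Ras signalling, had 25, 24, 25 and 26 reads, and its groups were separate only by a narrow margin in RPM. The insulin receptor gene Insr (21, 35, 33 and 40) overlapped. Pairs of the same group could be far apart: Disp1, which encodes a transporter that releases Hedgehog, had 4 and 35 reads in the untreated samples and 17 and 21 after 5-AZA, and the forkhead gene Foxn2 had 29 and 22, then 25 and 6. Groups did not overlap for Maml2, a coactivator of Notch (19 and 29, then 11 and 15), for Sipa1l1, a GTPase activator of Rap (28 and 23, then 20 and 21), and for circRNA_2205 of the zinc finger gene Glis3 (17 and 30, then 41 and 40).

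The exonic type as a whole had fewer junction reads in the 5-AZA samples and a similar share of all circRNA reads. Exonic junction reads numbered 2349 and 2401 in the untreated and 1867 and 1834 in the 5-AZA samples. On the RPM scale this was 25.5 ± 0.307 RPM in untreated and 19.8 ± 0.402 RPM in 5-AZA samples (SD, n = 2 each), a ratio of 0.777. The 2 samples of each group were close and the groups did not overlap, but 2 samples against 2 cannot give less than p = 0.333 in a two-sided exact permutation test, which was the value found. All circRNAs together went from 143 ± 0.315 to 114 ± 4.34 RPM, a ratio of 0.799. The exonic share of junction reads was 17.7% (95% exact binomial interval 17.0 to 18.3) and 17.9% (17.3 to 18.6) in the untreated samples and 17.1% (16.4 to 17.8) and 17.6% (16.8 to 18.3) in the 5-AZA samples. All 4 intervals overlapped, and the difference of the means was −0.473 percentage points (exact permutation p = 0.333). Without Tulp4 it was 0.10 percentage points, so its sign rested on that circRNA.

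**Figure D3:**
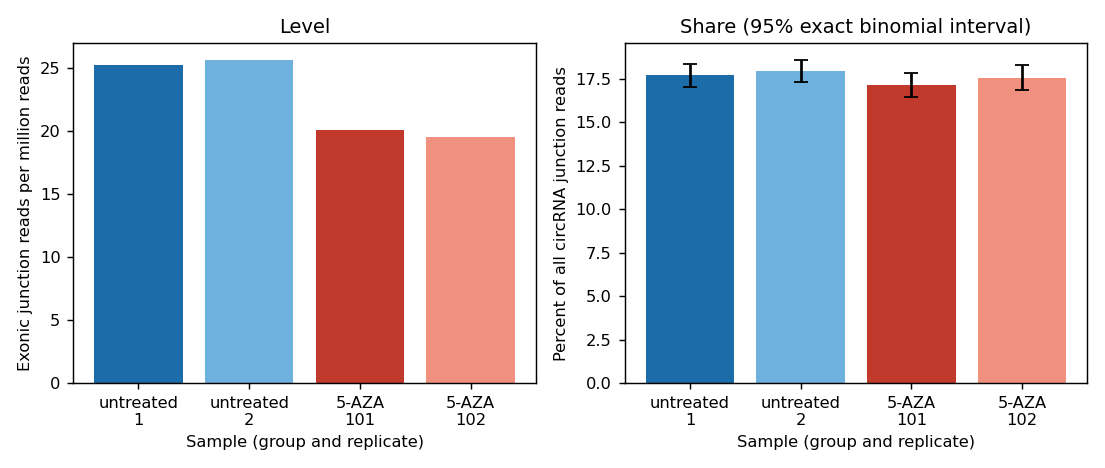
Left, junction reads of exonic circRNAs in each of the 4 samples in RPM. Right, their percent of all circRNA junction reads with 95% exact binomial intervals. The level is 19.5 to 20.1 RPM in the 5-AZA and 25.3 to 25.7 RPM in the untreated samples, while the intervals of the share overlap.

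Tulp4 and Arhgap5 made up much of the lower level. The 5-AZA samples had on average 524.5 fewer exonic junction reads, of which Tulp4 accounted for 39.3% and Arhgap5 for 27.0%. Nfix accounted for 7.05%, Tcf20 for 6.67% and Hipk3 for 2.57%. Without Tulp4, Nfix and Arhgap5, the level was 11.2 RPM in untreated and 9.68 RPM in 5-AZA samples, a ratio of 0.864. The number of exonic circRNAs detected was 116 and 125 in the untreated and 97 and 121 in the 5-AZA samples (exact permutation p = 0.667), and with at least 5 reads it was 65 and 56, then 56 and 64. The groups overlapped in both counts, and without replicate 101 the mean difference in number was 0.5 in place of −11.5.

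Single circRNAs were compared by limma on log2(RPM + 0.0213), where the pseudocount is the smallest value above 0, over 1360 circRNAs of every type detected in at least 2 samples. Of the 227 exonic circRNAs, 107 passed this limit and the other 120 were left out of the fit. At an adjusted p-value below 0.05 and over 2-fold, 0 of 107 were called in either direction, as were 0% of all 1360, and the smallest adjusted p-value was 0.119. At an unadjusted p-value below 0.05, 7 of 107 were higher (6.69% of all circRNAs tested were) and 9 of 107 were lower (11.8% of all). Of the 7, 6 were listed at 0 in both untreated samples, and of the 9, 3 were listed at 0 in both 5-AZA samples, so these passed the limit on detection only through the group where they are high. Groups did not overlap for 16 higher (14% of all tested) and 28 lower (24.9% of all), so each count was near its background. The median log2 difference of the 107 was −0.11, against −0.16 over all 1360. It was 0.09 both after centring on the median of circRNAs and per 10000 circRNA junction reads, where 47 and 45 of the 107 were lower in place of 66.

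Among the 381 circRNAs detected in all 4 samples, a fit that leaves out the values at 0, 2 of the 49 exonic ones fell, Arhgap5 and Tcf20 (1.84% of all were called lower), and 0 rose (0.262% of all). At an unadjusted p-value below 0.05, 1 of the 49 was higher (2.62% of all 381) and 5 were lower (11.5%), and groups did not overlap for 6 higher (14.4% of all) and 17 lower (31.5%). Arhgap5 had a log2 difference of −1.57, with an adjusted p-value of 0.000161 in the limma fit of the 381 and 0.119 in the fit over 1360. For Tcf20 the difference was −1.05, with adjusted p-values of 0.0317 and 0.119. Tulp4 had −0.53 and adjusted p-values of 0.0552 and 0.245. In the fit over 1360 the SEs were 0.23 for Arhgap5, 0.11 for Tcf20 and 0.16 for Tulp4. Those of the fit of the 381 are not given here. A voom fit of the reads weights circRNAs by depth and scales to the circRNA junction reads of each sample. In it 0 of 107 were called, and Arhgap5 (log2 difference −1.32) and Tcf20 (−0.79) both had an adjusted p-value of 0.238. That fit covered the 1360 circRNAs, over which limma called neither. These 2 calls therefore depended on which circRNAs entered the fit. Of the 49, 33 (67.3%) had a lower fitted value after 5-AZA, as had 64.1% of the sense-overlapping ones. Centring on the median of circRNAs, which moved every difference by 0.20, left 26 of 49 lower, and scaling to 10000 circRNA junction reads left 20.

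**Figure D4:**
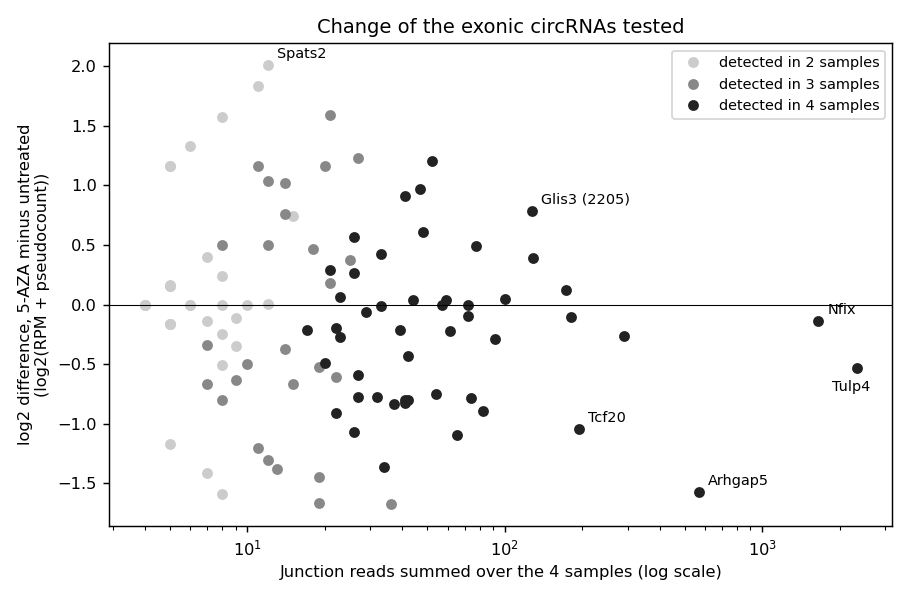
Fitted log2 difference, 5-AZA minus untreated, against junction reads summed over the 4 samples (log scale) for the 107 exonic circRNAs tested, shaded by the number of samples in which each was detected. Spats2 lies highest at 2.01 with 12 reads, while Arhgap5 lies at −1.57 with 569 reads and Nfix at −0.14 with 1652.

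Single samples of a group differed in many of the 49 circRNAs. The median absolute log2 difference was 0.60 between the untreated samples, 0.47 between the 5-AZA samples and 0.53 between the group means. For the 30 with at least 40 reads in all, these were 0.35, 0.40 and 0.60. Of the 49, 14 differed over 2-fold between the untreated samples, 13 between the 5-AZA samples and 15 between the group means. A mean of 2 samples varies less than a single sample, so the last value of each set is not on the same footing as the others.

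Many circRNAs with few reads were listed in a single group. Of the 227, 98 were detected in both groups, 53 only in 5-AZA samples and 76 only in untreated samples. The 53 had at most 12 reads and the 76 at most 8, and detection in both samples of a group held for 6 and 3 of them. The 6 came from Spats2 (6 and 6 reads), Bnc2, a zinc finger gene (8 and 3), Maml3, a coactivator of Notch (3 and 5), Bptf, a subunit of the NURF chromatin remodeller (3 and 3), Tmcc1 (3 and 2) and Dag1 (2 and 3). Dag1 encodes dystroglycan, which ties the muscle fibre to the matrix around it. The 3 came from Ltbp1, which encodes a binding protein of latent TGF-β (4 and 4), Foxn3 (2 and 5) and Peak1 (3 and 2), the last named after its values were seen. These counts lie near the limit of 2 reads, and the fitted differences of such circRNAs depend on the pseudocount.

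Other circRNAs with groups that did not overlap had reads on both sides. Ep400, a chromatin remodeller gene, had 3 and 13 untreated and 19 and 17 5-AZA reads, and the ubiquitin ligase gene Rnf216 had 4 and 0, then 7 and 10. Chd9, a chromodomain helicase gene whose splice site is printed above and which was named after its values were seen, had 7 and 6, then 14 and 14 (log2 difference 0.91, SE 0.22, adjusted p = 0.17, limma). Lower values were found for the SMAD anchor gene Zfyve9 (21 and 6, then 2 and 5), the kinase gene Stk35 (14 and 3, then 2 and 0) and the phosphodiesterase gene Pde5a (4 and 7, then 2 and 0). They were also found for Tead1, a transcription factor of the Hippo pathway (6 and 9, then 0 and 4). Sp3, a zinc finger gene, had 9 and 18, then 0 and 9, where the higher 5-AZA sample equalled the lower untreated sample in reads and lay below it in RPM. Lats2, a kinase of the same pathway as Tead1, overlapped between the groups with 3 and 9, then 6 and 8 reads.

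The host genes were expressed at moderate levels. Host level is the FPKM (fragments relative to transcript length and library size) summed over the transcripts of a gene, and it includes reads that come from the body of the circle. Its median over the 218 hosts was 10.6 FPKM (quartiles 4.75 and 23.7), and that of the sense-overlapping hosts was 11.4. It ranged from 0.0122 FPKM for Ugt8a, whose circle had 5 reads in untreated replicate 1 and none listed elsewhere, to 2804 FPKM for Ptn, whose circle had 3 reads in the same sample. Host FPKM and junction reads had a Spearman correlation of −0.0294 across the 227 circRNAs. Nfix and Ptn show the contrast, with 12.1 FPKM beside 1652 junction reads and 2804 FPKM beside 3. Of the circRNAs, 93 (41.0%) were the only one listed for their host, against 29.2% of the sense-overlapping type, and 50 of the other 134 held over 50% of the junction reads of their host.

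By the terms that the files list for each gene, 62 of 217 annotated hosts (28.6%) had regulation of DNA-templated transcription, against 16.7% of 2189 hosts of any circRNA. DNA-binding transcription factor activity was listed for 13.8% and 6.08%, and nucleus for 55.3% and 47.05%. These shares are descriptions without a test. Examples with many reads are Nfix, Glis3, Foxn2 and Tcf20.

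Few host genes were called after 5-AZA. Of 217 hosts tested by limma on log2(FPKM + 0.1) among 13199 genes, 5 rose over 2-fold at an adjusted p-value below 0.05 (13.1% of all genes did) and 1 fell (1.32% of all). For hosts of any circRNA these were 3.44% and 0.825%. Groups did not overlap for 54 higher (36.8% of all genes) and 83 lower hosts (25.4% of all), and the unadjusted p-value was below 0.05 for 26 higher (24.4%) and 30 lower ones (11.1%). Centring on the median gene, which moved host differences by −0.11, left 160 in place of 127 of the 217 lower. The 5 were Pappa2 (0.385 ± 0.0885 to 5.53 ± 0.463 FPKM), a protease gene of the insulin-like growth factor system, Bnc2 (0.473 ± 0.113 to 2.69 ± 0.228), the ephrin gene Efnb2 (2.35 ± 0.480 to 5.56 ± 0.342), Mtus1 (1.44 ± 0.180 to 3.46 ± 0.494) and Glis3 (4.02 ± 0.209 to 8.25 ± 1.14). Slc5a3, a sodium and myo-inositol transporter gene, fell from 193 ± 0.254 to 88.6 ± 3.49 FPKM (all SD with n = 2). Their circles had few reads except in Glis3: Pappa2 had 6 in replicate 102 alone, Efnb2 8 in replicate 101 alone, Mtus1 4 in replicate 1 alone and Slc5a3 3 in replicate 2 alone. The number of hosts called higher changed when a sample was left out. Such a fit has a single sample in a group, and shares over all genes were not counted for it. The change therefore cannot be read as particular to these hosts.

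**Figure D5:**
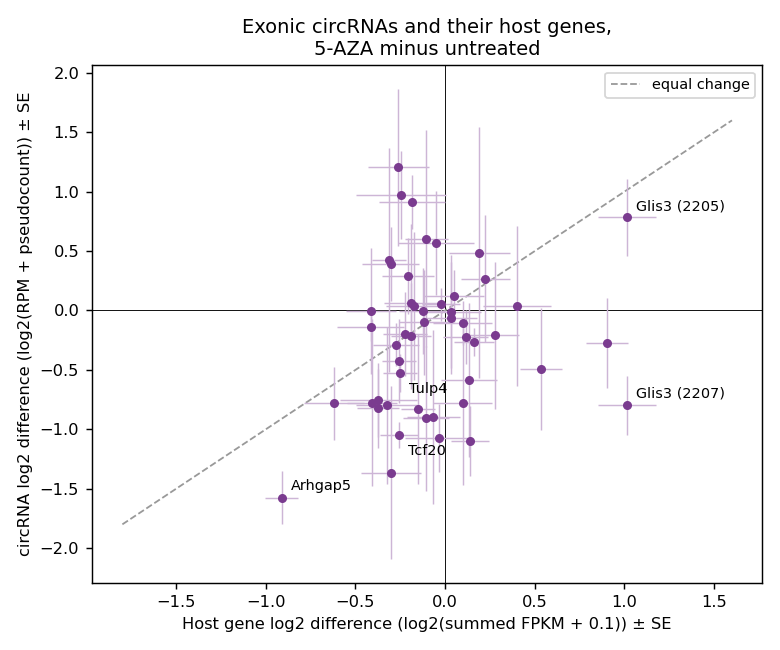
Log2 difference of the circRNA (vertical) and of its host gene (horizontal), 5-AZA minus untreated, for the 49 exonic circRNAs detected in all 4 samples. Standard errors are those of the fits over 1360 circRNAs and 13199 genes. The dashed line marks equal change. Arhgap5 lies at −0.91 for the host and −1.57 for the circle, and the circles of Glis3 lie on either side of 0 at the same host value of 1.01.

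Whether a circle moved differently from its host was asked of the log2 ratio of circRNA RPM to host FPKM. Of the 107 exonic circRNAs, 0 were called in either direction in this limma fit, as were 0% of all 1338 circRNAs tested. At an unadjusted p-value below 0.05, 6 had a higher ratio (4.04% of all) and 2 a lower one (5.98% of all). Spats2, Bptf, Maml3 and Dag1 among the higher were listed at 0 in both untreated samples, and Ltbp1 among the lower in both 5-AZA samples. These passed the limit on detection only through the group where they are high. The median log2 difference of the ratio was −0.16, against −0.09 over all 1338. In a fit of the 376 detected in all samples, 0 of the 49 were called, while at an unadjusted p-value below 0.05, 3 were higher (3.46% of all) and 5 lower (6.91%). Groups did not overlap for 5 higher (15.7% of all) and 12 lower ratios (27.4%), and over the 107 for 14 higher (13.4%) and 21 lower (23%). Among the 49, circRNA and host differences had the same sign in 26, with a Spearman correlation of 0.146, and they came from the same libraries.

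For Arhgap5, circle and host had the same direction. The host had 119 and 127 FPKM in the untreated and 65.1 and 65.6 FPKM in the 5-AZA samples (log2 difference −0.91, SE 0.09, adjusted p = 0.000154, limma). The ratio of circle to host differed by −0.66 (SE 0.46, adjusted p = 0.727, limma) and was not called. Both 5-AZA samples had a lower ratio than both untreated samples, as held for 23% of all 1338 circRNAs tested. The host of Tcf20 had 24.6 and 22.7, then 19.5 and 20.1 FPKM (−0.26, SE 0.11, adjusted p = 0.124). Its ratio differed by −0.79 (SE 0.39, adjusted p = 0.572), and the groups of the ratio did not overlap. For Tulp4 the host difference was −0.25 and that of the ratio −0.28 (SE 0.29, adjusted p = 0.89), again without overlap of the ratio between groups.

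Glis3, which encodes a Krüppel-like zinc finger transcription factor, is 1 of 9 hosts with 2 exonic circRNAs. Its circRNA_2205 (chr19:28530873-28531986, minus strand, 1114 bases, mmu_circ_0000943) had 17 and 30 untreated and 41 and 40 5-AZA reads. Its circRNA_2207 (chr19:28665753-28666236, minus strand, 484 bases) had 14 and 13, then 6 and 8. The circles thus had opposite directions in the same samples, and the ratio of the first to the second was 1.21 and 2.31 in the untreated and 6.83 and 5 in the 5-AZA samples (exact permutation p = 0.333, the smallest possible). The host rose by 1.01 (SE 0.16, adjusted p = 0.00202, limma). Relative to the host, circRNA_2205 differed by −0.23 (SE 0.43) and circRNA_2207 by −1.81 (SE 0.39), with an unadjusted p-value of 0.0068 and an adjusted one of 0.469.

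The other circRNAs with the largest differences of the ratio had few reads. They were higher for Spats2 (1.92), Bptf (1.75), Maml3 (1.72) and Dag1 (1.65), all listed at 0 in both untreated samples, and lower for Ltbp1 (−2.20), Sp3 (−1.65) and Stk35 (−1.40). The circles of Spats2, Bptf, Maml3, Dag1 and Ltbp1 were each listed in a single group, which alone brought them into the fit. Of their hosts, Dag1 fell from 63.0 ± 1.48 to 45.1 ± 3.75 FPKM (−0.48, adjusted p = 0.00877), and Ltbp1 rose from 29.2 ± 0.961 to 44.6 ± 1.23 FPKM (0.61, adjusted p = 0.00214, limma). The circle of Bnc2 was listed at 0 in the untreated samples, at 0.473 FPKM of its host. It had 8 and 3 reads in the 5-AZA samples, at 2.69 FPKM. Its ratio differed by −0.46 (SE 0.47, adjusted p = 0.89, limma). This circle too entered the fit only through the 5-AZA samples, so its untreated ratio rests on the pseudocount and the difference is no measured change.

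The 8 other hosts with 2 exonic circRNAs were Ash1l, Lpp, Mga, Mid1, Rnf216, Setbp1, Srsf1 and Vps13b, and no host had more. In Mid1, a ubiquitin ligase gene, both circles start at the same splice site, and the longer (716 bases) had 13, 14, 5 and 9 reads and the shorter (602 bases) 3, 4, 0 and 7. In Srsf1, a splicing factor gene, the circle of 3063 bases had 9, 3, 3 and 18 reads and the circle of 1356 bases 2 reads in replicate 101. Reads that cross different junctions identify such circles even where their bodies overlap. Mecom (circRNA_2633) and Pcdh9 (circRNA_1359) gave the only circles that begin at the first base of their listed transcript, with 8, 13, 6 and 12 reads and with 2 reads in replicate 1.

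Of 20 genes known to act in the formation or decay of circRNAs, 18 were tested. Of these, 1 rose over 2-fold (13.1% of all genes did) and 0 fell (1.32% of all). The unadjusted p-value of the limma fit was below 0.05 for 3 higher (24.4% of all genes) and 3 lower genes (11.1%). The median log2 difference of the 18 was −0.14, or −0.25 after centring. The gene that rose was Rbm20, a splicing factor of muscle that drives circles of titin in the heart, from 0.0933 ± 0.0447 to 1.36 ± 0.215 FPKM. Adar, an RNA-editing enzyme that opposes circle formation, rose less than 2-fold, from 5.00 ± 0.372 to 8.33 ± 0.251 FPKM (log2 difference 0.73, adjusted p = 0.00658, limma). Quaking (Qk) had 57.9 ± 1.70 and 54.9 ± 1.49 FPKM. Of the list, 5 genes are themselves hosts of exonic circRNAs: Mbnl2 gave 16, 9, 8 and 9 reads, Srsf1 the reads above, and G3bp1, Mbnl1 and Qk 8, 3 and 2 reads in a single sample each.

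Markers of other cell types moved with the treatment. Summed over 8 mesenchymal markers, the level was 3862 and 3918 FPKM in untreated and 3034 and 3334 FPKM in 5-AZA samples. The markers did not move together. Vim went from a mean of 2337 to 1279 FPKM and Col3a1 from 681 to 1172 FPKM. The median log2 difference of the 8 was 0.12, or 0.01 after centring. Of the 8, 0 were called over 2-fold by limma, against 13.1% of all genes called higher and 1.32% lower. The unadjusted p-value was below 0.05 for 3 higher (24.4% of all genes) and 3 lower genes (11.1%). All 8 skeletal muscle markers were called higher, from a sum of 1.48 and 1.21 to 748 and 1144 FPKM. Of 5 adipocyte markers, 4 were called higher, and the sum went from 45.2 and 30.1 to 1079 and 1477 FPKM. The other, Pparg, rose less than 2-fold (log2 difference 0.92, adjusted p = 0.0114, limma). Of 4 epithelial markers, 3 were called higher, and the sum went from 0.941 and 0.877 to 19.9 and 25.1 FPKM. The 5-AZA sum was mostly Krt8 (15.3 and 19.4 FPKM) and Krt18 (4.22 and 4.99 FPKM). Epcam, the third called, stayed below 1 FPKM (0.207 and 0.301 after 5-AZA). Cdh1 had the opposite direction, with means of 0.498 and 0.262 FPKM, and was not called (log2 difference −0.79, adjusted p = 0.174, limma). Endothelial markers rose in 1 of 2 tested, all below 1 FPKM, and immune markers in 1 of 2 tested, with Adgre1 at 0 in all samples. The part of this shift in the circRNA differences was not tested, and in these bulk samples fewer cells of a type and less RNA per cell cannot be told apart.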

How the data were processed

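The authors deposited RPM values for each circRNA, back-spliced junction reads scaled to the reads of the library, and FPKM values for each mRNA transcript, from stranded libraries depleted of ribosomal RNA. Their processing notes list Trimmomatic, HISAT2, Bowtie2 2.2.9, eXpress 1.5.1 and the build mm9, without roles. The circRNA predictor is not given in the sources used here. Circle lengths and genomic spans, in bases, types, circBase identifiers and gene terms are as deposited by the authors. Coordinates are printed as the files give them. They match GRCm38 and not the listed mm9: 184 of 211 host transcripts lay inside the RefSeq GRCm38.p6 span of their gene, and all 53 acceptor sites read from that build, of any type, were AG.

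Every RPM value was a whole multiple (tolerance 1e-06) of a step that is 0.5 of the smallest value above 0 in its column, and this step was taken as 1 read. FPKM keeps no reads, so the depth behind a host value is unknown. limma 3.58.1 in R 4.3.3 (lmFit, eBayes with trend) was fitted to log2(RPM + 0.0213) of circRNAs detected in at least 2 samples and to log2(FPKM + 0.1) of genes averaging 0.1 FPKM or more, over all features, with Benjamini-Hochberg adjustment. Fold changes on these scales understate those of low features. A call needed an adjusted p-value below 0.05 and over 2-fold. Tests were tried on simulated data.

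The members, gene lists and tests were chosen with earlier results of these data known. Named circRNAs are the 15 with the most reads, the 8 higher and 8 lower with the largest difference among those whose groups did not overlap, those called, the 3 longest and 3 shortest, and the 4 largest rises and falls of the ratio to the host. Other circRNAs and hosts in the text, such as Chd9, Lats2, Mecom, Mid1, Peak1, Ptn and Ugt8a, are examples named after their values were seen. Of 227 circRNAs, 6 had their acceptor in a RefSeq promoter window (250 bases before to 50 after a start) and 5 had 60 bases before it. Leaving out each sample, and other pseudocounts, limits, scalings and fits, were tried as alternatives. The lncRNA values were not used here.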

Additional observations from a re-analysis of the deposited data

How the results depend on the processing

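No paired analysis was possible because the groups share no replicate numbers. The 2 count-model tests planned for the recovered reads were not run, since a check of units did not accept reads whose smallest value is 2. A voom fit of the same reads was chosen in their place after seeing the data. Of the exonic circRNAs, 1 was called lower without the limit on detection (Arhgap5, adjusted p = 0.00666) and 2 among circRNAs detected in all 4 samples. At an unadjusted p-value below 0.05 the number higher was 3 and 1 under these limits, and the number lower was 4 and 5. Except for the circRNAs detected in all 4 samples, shares over all circRNAs were not counted under these alternatives. Their counts therefore cannot be read as particular to the exonic type. The balance of 7 higher and 9 lower turned to 9 and 5 per 10000 circRNA junction reads, 9 and 3 after centring and 10 and 4 with voom. With each sample left out, it was 6 to 10 higher and 4 to 9 lower.

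Host genes called higher numbered 2 with a pseudocount of 1 FPKM, 2 without the limit on level and 3 by the highest transcript, and 0 to 6 with a sample left out. Those called lower numbered 2 by the highest transcript and 2 after centring, which moved host differences by −0.11. Shares over all genes were not counted under these alternatives. For the alternatives of the ratio, shares over all circRNAs were counted only among those detected in all 4 samples. At an unadjusted p-value below 0.05, 73 hosts were lower after centring, and with a sample left out 14 to 27 were higher and 8 to 26 lower. For the ratio to the host, 3 were higher and 5 lower among circRNAs detected in all 4 samples, 3 and 4 by the highest transcript, 4 lower with pseudocounts of 1 read and 1 FPKM, and 1 to 4 higher and 1 to 2 lower with a sample left out. The exonic share of reads differed by 0.10 percentage points without Tulp4, and by −0.689 to −0.256 with a sample left out. The number detected differed by −23.5 to 0.5 with a sample left out (0.5 without replicate 101). Median length was 716 bases over circRNAs detected in at least 2 samples and 1099 bases weighted by reads.

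Some log2 differences changed sign. Per 10000 circRNA junction reads, Nfix was at 0.186, Hipk3 at 0.0502, Setbp1 at 0.206, Sipa1l1 at 0.0114 and Samd4 at 0.292. After centring Nfix was at 0.0598, Setbp1 at 0.0920 and Samd4 at 0.194, and with voom Nfix was at 0.166, Hipk3 at 0.0166, Setbp1 at 0.189 and Samd4 at 0.276. With a sample left out, Setbp1 ranged from −0.288 to 0.0777, Kat6b from −0.115 to 0.360, Disp1 from −0.824 to 1.80 and Samd4 from −0.293 to 0.287. Among hosts, Spats2 was at −0.0245 after centring, and Maml3 at 0.107 and Stk35 at 0.0819 by the highest transcript. With a sample left out, Spats2 ranged from −0.0192 to 0.184, Sp3 from −0.0531 to 0.0210 and Stk35 from −0.594 to 0.0553. Centring added 0.20 to every circRNA difference. The scale per 10000 junction reads and voom both scale to the circRNA junction reads of a sample, which were fewer after 5-AZA. The cause of these lower totals was not tested. With 2 samples a group and a median of 5 reads, a circRNA that was not called is not shown to be unchanged.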
